A study of Mus musculus with 12 samples.

Results

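Control mouse liver was followed from post-natal day 1 (P1) to post-natal day 5 (P5) through its autosomal areas of H3K9me3, the trimethyl mark on lysine 9 of histone H3. All peaks on the 19 autosomes of the control P1 and control P5 peak lists were taken, 247677 peaks at P1 and 239510 at P5. These 487187 peaks belong to 2556871 listed in all 9 deposited lists. The study set C57BL/6 control mice against Alb-D2KO mice at these ages and in adult life, asking whether loss of hepatic thyroid hormone activation alters the H3K9me3 landscape of the newborn liver. Control mice expressed Cre-recombinase, so that the Cre transgene was present in both genotypes. Whether they carried a floxed Dio2 allele is not stated. Alb-D2KO mice carried Cre under the albumin promoter with floxed Dio2, for an inactivation of the D2 deiodinase that the methods describe as hepatocyte-specific. H3K9me3 chromatin was set against input chromatin of the same genotype and age.

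Chromatin of each P1 or P5 library came from a pool of 3 livers, and adult livers were processed individually. There was 1 list per genotype and age, so that no test and no error between replicates could be given. The methods describe more than 1 control pool at P1 and repeated sequencing, and whether runs were merged is not stated. Age therefore cannot be told apart from the pool, the library, its depth or its sequencing. Depth is unknown because the lists hold no read counts, and a longer covered length cannot be told apart from a deeper library. Neonatal liver also holds blood-forming cells, and in bulk tissue fewer cells of a type and less mark per cell cannot be told apart. Alb-D2KO P1 and P5 lists share no library with the control lists, and their values are set beside control values below, as are those of the adult control list, in most but not all places. Peak lists hold no expression, so the tissue label could not be checked against marker RNA.

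H3K9me3 is laid down mainly by SUV39H1, SUV39H2 and SETDB1, is read by HP1 proteins, and marks closed chromatin. It covers satellite and transposon sequence, clusters of genes that a tissue does not use, such as odorant and pheromone receptors, and the 3′ ends of zinc finger genes. In developing liver it also covers genes of other lineages and genes not yet in use.

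The 4 sequences that follow are single examples, not typical ones, of DNA in which control peaks were present at one age and absent at the other. They were chosen because the Alb-D2KO lists held the same presence and absence. All are forward-strand reference sequence of build mm10 (GRCm38), with CpG dinucleotides in capitals. The Cyp2b9 piece at chr7:26188138-26188437 is the middle of the bases shared by the P1 lists of both genotypes, within a control peak that the lists place at coding exon 4, and had no base covered at P5 in either. An intergenic peak at chr14:87372772-87372960 had the strongest listed p-value (−log10 p 8.04, 3.59-fold over input) among P1 peaks of at least 2-fold enrichment absent from both P5 lists, and 187 of its 189 bases were covered in the adult. Its P5 counterpart at chr13:99790938-99791148 (−log10 p 11.1, 2.72-fold) was absent from both P1 lists and from the adult list, and it contains runs of alternating C and A and of alternating T and G. The Grip1 peak at chr10:119583640-119583865 lies in intron 1 (−log10 p 2.29, 2.27-fold), was covered over its 226 bases in both P5 lists and in the adult, and had no base covered at P1.
Cyp2b9, P1 in both genotypes: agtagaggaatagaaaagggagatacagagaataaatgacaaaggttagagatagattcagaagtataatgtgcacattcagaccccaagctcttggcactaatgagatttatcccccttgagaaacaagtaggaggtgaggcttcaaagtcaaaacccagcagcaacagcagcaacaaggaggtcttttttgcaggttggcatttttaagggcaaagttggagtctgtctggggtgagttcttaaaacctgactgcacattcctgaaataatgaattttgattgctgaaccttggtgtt
chromosome 14, P1 in both genotypes: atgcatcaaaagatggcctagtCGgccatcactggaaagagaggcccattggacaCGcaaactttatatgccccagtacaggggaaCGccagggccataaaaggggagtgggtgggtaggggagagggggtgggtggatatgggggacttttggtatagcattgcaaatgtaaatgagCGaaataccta
chromosome 13, P5 in both genotypes: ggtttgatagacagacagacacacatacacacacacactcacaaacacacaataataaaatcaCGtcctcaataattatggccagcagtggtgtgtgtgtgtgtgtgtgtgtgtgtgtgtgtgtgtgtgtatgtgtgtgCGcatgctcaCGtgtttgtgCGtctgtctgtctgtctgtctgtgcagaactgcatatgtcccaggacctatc
Grip1, P5 in both genotypes: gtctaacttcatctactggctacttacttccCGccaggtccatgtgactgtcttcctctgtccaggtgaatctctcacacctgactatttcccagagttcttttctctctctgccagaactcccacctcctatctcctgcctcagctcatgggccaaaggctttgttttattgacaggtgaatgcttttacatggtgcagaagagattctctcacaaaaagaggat
The Cyp2b9 piece holds 0 CpG in 300 bases, and the other 3 hold 4, 4 and 1. G and C made up 51.3% of the chromosome 14 peak, beside 38.7% of all bases covered at P1 alone. In the chromosome 13 peak it was 46.4%, beside 38.5% of all bases covered at P5 alone.

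Sex chromosomes set the libraries apart before any gene was looked at. Covered length per base of Y, relative to autosomes, was 0.261 at P1 and 0.0775 at P5 in control. In Alb-D2KO it was 0.722 and 0.102. For X the control values were 1.43 and 1.59. The part of litter composition in the autosomal results was not tested. Only autosomes were compared below.

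Covered length was slightly higher at P5 than at P1. Control peaks covered 461 Mb at P1, which was 18.7% of the autosomes, and 488 Mb at P5, 19.8%, a ratio of 1.06. In Alb-D2KO the ratio was also 1.06, with 472 Mb and 498 Mb. The adult control list covered 396 Mb. The P5 list held fewer but wider peaks, with a median width of 1048 bp against 962 bp at P1 and a median enrichment of 1.77-fold against 1.81-fold. Most peaks of both lists were weak. Only 510 of 247677 P1 peaks and 443 of 239510 P5 peaks had a listed q-value below 0.05. Each of the 19 autosomes covered more at P5, with ratios from 1.00 on chromosome 7 to 1.11 on chromosome 13. The direction depended on the limit on peak strength. Peaks with a listed −log10 p above 2 covered 54.1 Mb at P1 and 49.0 Mb at P5, a ratio of 0.907, and in Alb-D2KO 57.3 Mb and 50.6 Mb, a ratio of 0.883. Above 3 the control ratio was 1.51, and for the 10000 strongest peaks of each list 1.22.

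Most P1 peaks had a counterpart at P5. Of the P1 peaks 65.6% (95% Wilson interval 65.4 to 65.7) overlapped a P5 peak by at least 1 bp, and of the P5 peaks 63.3% (63.1 to 63.5) overlapped a P1 peak. These intervals cover counting error only, with peaks as the counted units. Peaks found at one age alone were narrow, with a median of 533 bp at P1 and 574 bp at P5, against 1499 bp and 1716 bp for those found at both ages. Alb-D2KO lists of either age held only 33.7% to 36.1% of the peaks found at P1 alone, and 31.7% to 35.6% of those found at P5 alone. In both cases the higher share was that of the Alb-D2KO P5 list, so that peaks of P1 alone were found no more often in the Alb-D2KO list of the same age than in the other. Of peaks found at both ages, 80.7% to 83.4% were in an Alb-D2KO list.

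Bases covered at both ages amounted to 293 Mb, with 168 Mb covered at P1 alone and 195 Mb at P5 alone. All 3 sets were poorer in G and C (37.2% to 38.7%) than the autosomes (41.9%). They were richer in repeats, with 50.8% of the shared bases, 42.8% of the P1-only and 44.8% of the P5-only bases soft-masked, against 33.5% of the autosomes. CpG dinucleotides occurred 5.52, 5.65 and 5.87 times per kb in the shared, P1-only and P5-only bases and 8.51 times per kb overall. Peaks were intergenic in 65.3% at P1 and 64.5% at P5, intronic in 21.9% and 22.03%, and at a transcription start in 3.89% and 4.13%.

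The spread between libraries gives a scale for the windows that follow. Over the 24620 windows of 100 kb, the P5 minus P1 difference in control had an SD of 4.30 kb. The difference between the genotypes at one age had an SD of 3.82 kb at P1 and 4.26 kb at P5. Libraries of different age thus differed per window about as much as libraries of different genotype. The part of age or genotype in these spreads was not tested. Levels at P1 and P5 were alike (Spearman's rho 0.967 across windows). Differences were alike to a lesser degree, with a Pearson's r between the control and the Alb-D2KO differences of 0.261 at 100 kb and 0.551 in the 2454 windows of 1 Mb. These correlations are across windows of the same libraries and describe them only.

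**Figure D1:**
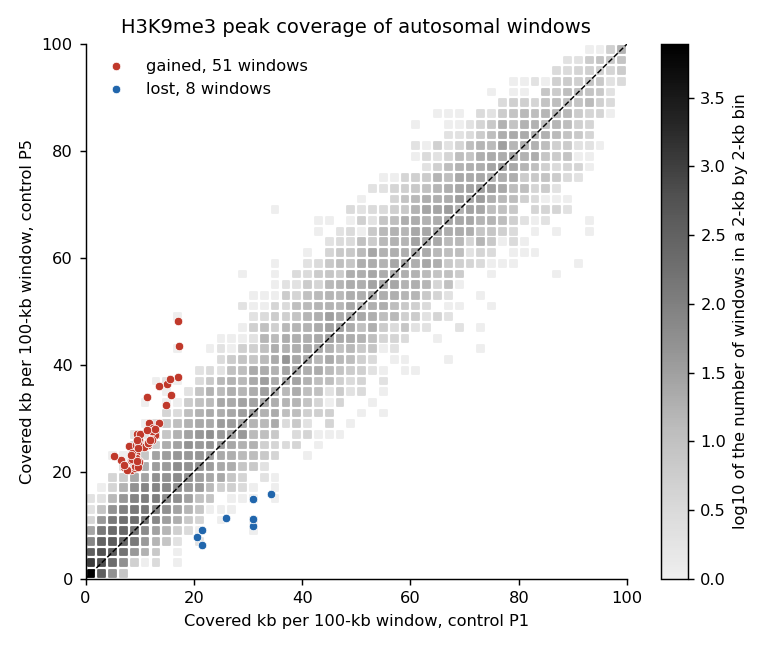
Covered kb per 100-kb autosomal window in control liver at P1 (x axis) and P5 (y axis), with grey shading for the number of windows (log10 scale), a dashed line of equal coverage, and the called windows as coloured points. Windows lie along the line, with 51 called higher at P5 (red, legend "gained") and 8 called higher at P1 (blue, legend "lost").

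The further coverage at P5 lay in sparsely covered chromatin. Windows were sorted by their mean covered length in the Alb-D2KO lists, which took no part in the control values. The ratio of P5 to P1 in control was 1.44 in windows with 1 to 5 kb, 1.30 with 5 to 10 kb, 1.19 with 10 to 20 kb and 1.08 with 20 to 40 kb. It was 1.03, 1.01 and 1.00 in windows with 40 to 60, 60 to 80 and 80 to 100 kb. The first 4 of these classes gained 4.54, 5.06, 6.13 and 5.30 Mb of the 26.8 Mb added in all. For peaks with −log10 p above 2 the difference was −3.44 Mb in the windows with 60 to 80 kb and −3.79 Mb in those with 80 to 100 kb. Coding genes numbered 0.914 per window with 1 to 5 kb, 0.513 with 10 to 20 kb, 0.402 with 20 to 40 kb and 0.313 with 40 to 60 kb, and 0.337 and 0.615 with 60 to 80 and 80 to 100 kb.

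**Figure D2:**
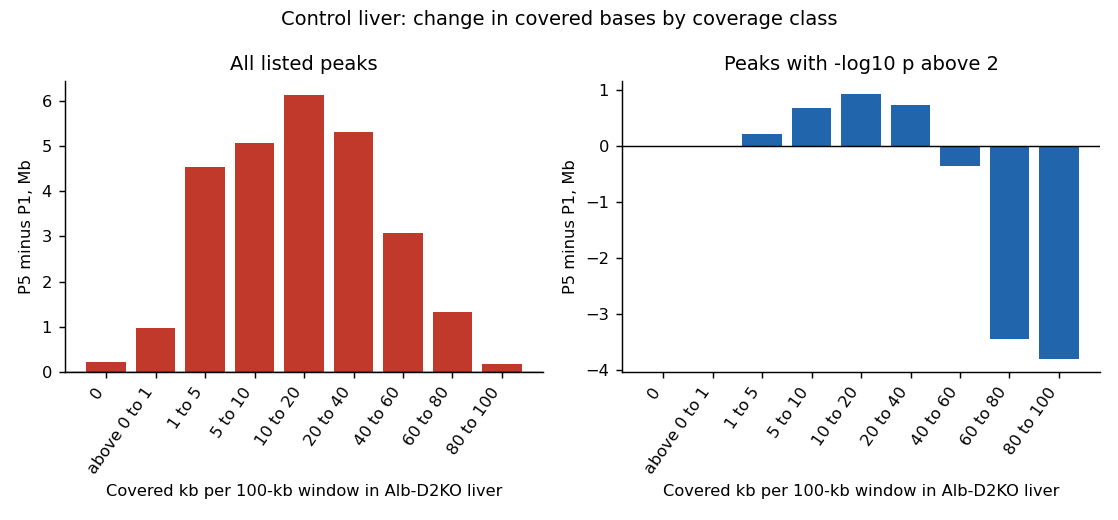
Difference in covered length in control liver (P5 minus P1, Mb, y axes) for classes of 100-kb windows by their mean covered kb in the Alb-D2KO lists (x axes), for all peaks on the left and for peaks with −log10 p above 2 on the right. For all peaks the difference is at its highest (6.13 Mb) in windows with 10 to 20 kb covered, and for the stronger peaks it lies below 0 from 40 kb upwards.

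A window of 100 kb was called where the larger side covered at least 20 kb and the sides differed at least 2-fold after 1 kb was added to each. Of 8168 windows with 20 kb or more, 51 were called higher at P5, which is 0.624%, and 8 were called higher at P1, which is 0.0979%. With each list held to the same covered length, which took the weakest P5 peaks out, 29 and 34 windows were called. With P5 scaled by the autosomal totals instead, 35 and 9 were called. The split between the directions thus changed when the weakest P5 peaks were left out, and stayed when only the totals were scaled. In Alb-D2KO 48 of 8197 windows were called higher at P5 (0.586%). Of the 51 control windows 5 were called the same way in Alb-D2KO and 45 differed in the same direction, where 56.5% of all windows were higher. Of the 8 windows called higher at P1, 0 were called in Alb-D2KO and 3 had the same direction, where 29.2% of all windows were lower. Values of these windows chose them and are a description.

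Of the 10 windows called higher at P5 with the largest differences, 6 hold a coding gene. Pairs of values below are covered kb at P1 and then at P5. The window with the largest difference, chr8:38800001-38900000, has no gene and covered 17.02 kb at P1 and 48.3 kb at P5, where Alb-D2KO had 33.1 and 30.6 kb and the adult 33.8 kb. At chr15:9200001-9300000, which holds Lmbrd2 and the glycosyltransferase gene Ugt3a1, coverage was 17.2 and 43.5 kb in control, 20.2 and 40.4 kb in Alb-D2KO and 33.3 kb in the adult. Grip1 encodes a scaffold for AMPA-type glutamate receptors, and the window at chr10:119500001-119600000 inside it covered 13.5 and 36.0 kb, with 12.8 and 28.3 kb in Alb-D2KO and 94.3 kb in the adult.
The window of Fgf10, a growth factor gene, at chr13:118700001-118800000 covered 15.6 and 37.4 kb in control, 17.1 and 31.7 kb in Alb-D2KO and 38.3 kb in the adult. That of Vegfc, which drives growth of lymphatic vessels, at chr8:54100001-54200000 covered 15.1 and 36.5 kb, with 12.3 and 24.0 kb in Alb-D2KO and 15.0 kb in the adult. B3glct encodes the glucosyltransferase that extends O-fucose on thrombospondin repeats, and its window at chr5:149700001-149800000 covered 15.8 and 34.4 kb, with 20.2 and 30.9 kb in Alb-D2KO and 61.3 kb in the adult. In the windows of Ugt3a1, Grip1, Fgf10 and B3glct the adult list covered more than the P1 list, whereas that of Vegfc was at its P1 level. Control peaks with −log10 p above 2 covered 1.05 and 0.645 kb of the Grip1 window. In the Fgf10 window such peaks covered 0 kb at both ages. The windows of Ugt3a1, Vegfc and B3glct had 0 and 6.08 kb, 6.14 and 7.70 kb, and 0 and 12.1 kb.
The 3 further windows without coding genes, at chr3:147500001-147600000, chr13:90600001-90700000 and chr3:151000001-151100000, covered 11.4 and 33.9 kb, 17.1 and 37.8 kb, and 14.8 and 32.5 kb. Armh4 at chr14:49600001-49700000 covered 5.35 and 23.0 kb in control but 16.8 and 13.7 kb in Alb-D2KO. By the smaller difference of both genotypes the windows of Ugt3a1 and Grip1 and the gene-free chr9:90300001-90400000 (12.3 and 27.7 kb, Alb-D2KO 8.93 and 28.9 kb) led.

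Of the 8 windows called higher at P1, 4 adjoin each other in the Skint cluster on chromosome 4, whose member Skint1 selects epidermal gamma delta T cells. From chr4:112200001 to 112600000 their covered length was 20.5, 30.9, 25.9 and 30.9 kb at P1 and 7.90, 9.87, 11.4 and 11.1 kb at P5, with 4.24, 7.39, 5.41 and 7.44 kb in the adult. Alb-D2KO stood at 51.6, 58.6, 65.7 and 73.3 kb at P1 and 71.1, 73.2, 84.6 and 86.5 kb at P5. Both Alb-D2KO lists thus lay above both control lists, and the difference between ages had the opposite sign.
The window at chr7:6900001-7000000 holds Usp29, an imprinted neighbour of Peg3, and Aurkc, a meiotic kinase gene. It covered 21.5 kb at P1 and 9.11 kb at P5 (adult 0.569 kb), with 15.9 and 5.803 kb in Alb-D2KO, and was the one P1 window with a difference of similar size in both genotypes. The remaining 3 were chr7:77200001-77300000 (34.3 and 15.9 kb, Alb-D2KO 20.6 and 40.8 kb), chr5:62500001-62600000 (30.9 and 14.8 kb, Alb-D2KO 28.5 and 26.9 kb) and the Prr16 window chr18:51100001-51200000 (21.6 and 6.38 kb, Alb-D2KO 14.8 and 14.7 kb).

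Larger windows brought out domains that 100-kb windows missed, and were examined after the data had been seen. Of 2454 windows of 1 Mb, 74 covered at least 50 kb more at P5 (3.02%) and 20 at least 50 kb less (0.815%). The 74 had the same direction in Alb-D2KO in 69 cases, whose windows were higher at P5 in 78.8% of all cases. The 20 had it in 18 cases, whose windows were lower in 18.8%. In each of these 20 windows the adult list covered less than the P5 list, as in 41.4% of all 1-Mb windows. Densely covered windows were lower in the adult as a class. The 100-kb windows with 60 to 80 kb in Alb-D2KO averaged 68.5 kb at control P5 and 38.6 kb in the adult. Those with 80 to 100 kb averaged 84.5 and 50.1 kb.

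The proximal end of chromosome 12 had the largest differences towards P1. Windows chr12:22000001-23000000 and chr12:23000001-24000000 covered 856 and 848 kb at P1 and 703 and 708 kb at P5. Alb-D2KO covered 775 and 798 kb at P1 and 598 and 677 kb at P5. The adult covered 414 and 478 kb. Nearby, chr12:18000001-19000000 covered 862 and 735 kb and chr12:19000001-20000000 covered 846 and 730 kb, with 805 and 678 kb and 823 and 717 kb in Alb-D2KO. From 17 to 24 Mb, 7 windows in all, control coverage was 4.72 Mb at P1 and 4.09 Mb at P5 (adult 3.08 Mb), and Alb-D2KO had 4.53 and 3.92 Mb. The 4 windows named hold 3 annotated coding genes in all. Of 100-base stretches of their reference sequence, 30.2% to 70.7% had more than 1 equally good position in the genome, where 120 windows across the autosomes gave 5.25%. The part of such placement in the difference was not tested.

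On chromosome 7 the windows with less coverage at P5 held clusters of pheromone receptor and secretoglobin genes. Secretoglobins (Scgb) include the androgen-binding proteins of mouse saliva, and their window chr7:32000001-33000000 covered 892 kb at P1 and 766 kb at P5 (adult 65.4 kb). Alb-D2KO covered 885 kb at P1 and 463 kb at P5 there. Type 1 vomeronasal receptors (Vmn1r) detect pheromones, and their window chr7:21000001-22000000 covered 880, 800 and 114 kb, with 888 and 572 kb in Alb-D2KO. From 20 to 24 Mb the Vmn1r cluster was covered over 3.65 Mb at P1 and 3.43 Mb at P5 (adult 0.696 Mb). Its area was also more broken up, with 269 peaks of a median 5.57 kb at P1 and 385 of 4.79 kb at P5, and in Alb-D2KO 228 peaks of 7.43 kb and 789 of 1.95 kb. Equally good placements made up 83.4% to 92.2% of the stretches from 20 to 23 Mb, 35.3% from 23 to 24 Mb and 70.5% in the secretoglobin window.
Unlike these, the window of Psg and Ceacam genes, which encode pregnancy-specific and adhesion glycoproteins, had few such stretches (9.5%). At chr7:18000001-19000000 it covered 455 kb at P1 and 386 kb at P5 (adult 264 kb), with 488 and 359 kb in Alb-D2KO. An olfactory receptor window, chr19:13000001-14000000, covered 724, 631 and 332 kb, with 728 and 626 kb in Alb-D2KO and 7.55% such stretches. Beta-defensin genes at chr8:19000001-20000000 covered 449, 380 and 224 kb, with 444 and 424 kb in Alb-D2KO. The Skint window chr4:112000001-113000000 went the other way in Alb-D2KO, with 415 and 309 kb in control against 678 and 804 kb.

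Of the 10 windows with the largest differences towards P5, 5 had no coding gene, as had 3 of the 10 led by the smaller difference of both genotypes. The first 4, all without one, were chr4:38000001-39000000 (465 and 562 kb, Alb-D2KO 509 and 561 kb), chr13:82000001-83000000 (402 and 496 kb, Alb-D2KO 400 and 497 kb), chr8:51000001-52000000 (722 and 812 kb, Alb-D2KO 774 and 800 kb) and chr6:26000001-27000000 (418 and 505 kb, Alb-D2KO 428 and 516 kb). A pair of the 10 hold liver genes. The values that follow are for whole windows and not for those genes, neither of which was among the gene bodies called further below. The window chr6:37000001-38000000 holds Akr1d1, the steroid 5-beta-reductase of bile acid synthesis, and covered 90.6 kb at P1 and 175 kb at P5 (adult 183 kb), with 103 and 162 kb in Alb-D2KO. The window chr3:18000001-19000000 holds Cyp7b1, the oxysterol 7-alpha-hydroxylase, and covered 210, 293 and 353 kb, with 239 and 289 kb in Alb-D2KO.

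Enrichment over input within broad domains was compared too, after the data had been seen, in the 328 windows of 1 Mb with at least 500 kb covered in all 4 neonatal lists. The mean fold enrichment of a window, weighted by peak length, had a median of 1.93 at P1 and 1.90 at P5, with 315 of 328 windows lower at P5. The 15 windows with the lowest differences were lower at P5 in Alb-D2KO as well, where 304 of all 328 were (92.7%), and 8 of them lay on chromosome 7 and 4 on chromosome 12. In the Vmn1r cluster the fold was 2.20 and 2.09 at chr7:20000001-21000000, 2.13 and 2.00 at chr7:21000001-22000000 and 2.25 and 2.13 at chr7:22000001-23000000. The 9 windows with at least 5 Vmn1r genes had a median difference of −0.0719 and 0 were higher, beside −0.0345 over all 328.
Some zinc finger clusters stood at the other end. Zinc finger genes were counted by the start of their names, such as Zfp, Zkscan, Zscan or Zik. Any with other names, such as Gm numbers, were not counted. KRAB zinc finger proteins bind transposon sequence and bring in TRIM28 and SETDB1, and their own clusters carry H3K9me3. Of the 13 windows with a higher fold at P5, 11 were also higher in Alb-D2KO, where 24 of all 328 were, and 10 held at least 1 zinc finger gene, as did 24 of all 328 (7.32%). Of the 5 windows with at least 5 zinc finger genes 3 were higher, and 2 were lower in both genotypes, chr7:11000001-12000000 (2.04 and 2.00) and chr7:12000001-13000000 (2.03 and 2.01). On chromosome 4 the fold was 2.44 and 2.61 at chr4:145000001-146000000, 2.55 and 2.72 at chr4:146000001-147000000 and 2.50 and 2.65 at chr4:147000001-148000000, with adult values of 2.66, 2.82 and 2.75. The chr17:22000001-23000000 window had 2.12 and 2.22, and 2.29 in the adult. The windows chr13:65000001-66000000 and chr13:66000001-67000000, with 1 zinc finger gene each by this count of names, had 2.24 and 2.32 and 2.27 and 2.36. In Alb-D2KO the fold differed by 0.0970, 0.215 and 0.146 on chromosome 4 and by 0.0768 on chromosome 17, in the same direction, and by 0.0316 and 0.0175 on chromosome 13. Equally good placements made up 26.8%, 62.9% and 38.7% of the stretches on chromosome 4, 14.6% on chromosome 17, and 42.4% and 49.95% on chromosome 13. The windows of Cyp2c genes (chr19:39000001-40000000, 1.97 and 1.99) and of Sult2a sulfotransferase genes (chr7:14000001-15000000, 1.98 and 2.00) were also among the 13.

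**Figure D3:**
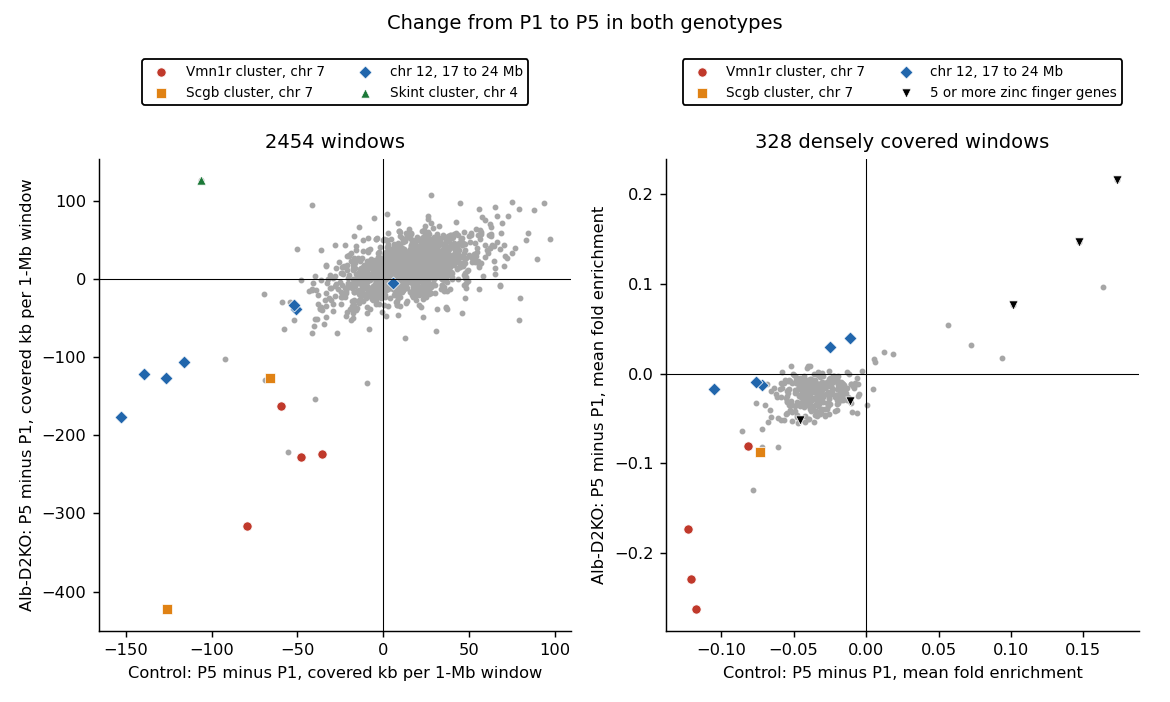
P5 minus P1 difference per 1-Mb window in control (x axes) and Alb-D2KO (y axes), as covered kb in 2454 windows on the left and as mean fold enrichment in 328 densely covered windows on the right, with coloured symbols for the clusters named in each legend. On the left the Vmn1r, Scgb and most chromosome 12 windows lie below 0 in both genotypes and the Skint window (−106 kb in control, 126 kb in Alb-D2KO) lies apart. On the right 3 of the 5 zinc finger windows lie above 0 in both genotypes and reach a difference of 0.173 in control.

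With peaks of −log10 p above 2 alone, 688 windows of 100 kb had 20 kb or more, and 97 were called higher at P5 (14.1%) and 183 higher at P1 (26.6%). Of the 183, 62 (33.9%) were called the same way in Alb-D2KO and 15 the opposite way. In Alb-D2KO 245 of all 24620 windows were called higher at P1. That is 31.7% of its windows with 20 kb or more of such peaks, a condition not put on the 183 there. Of the 97, 11 were called the same way and 14 the opposite way in Alb-D2KO, where 113 windows were called higher at P5. MACS2 averages the score over a broad peak, so that a whole domain near the limit goes in or out at once. The longest run, 19 windows from chr7:20000001 to 23600000, had 1341 kb of such peaks at P1 and 258 kb at P5, where all peaks covered 1741 and 1589 kb. In Alb-D2KO it had 1384 and 215 kb.

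Gene by gene, coverage was measured over the bodies of 51229 autosomal reference genes. A gene was called where the larger side covered at least 10 kb and the sides differed at least 2-fold after 1 kb was added. Of 2435 bodies with 10 kb or more, 68 were called higher at P5 (2.79%) and 6 higher at P1 (0.246%). In Alb-D2KO 95 of 2438 were called higher at P5 (3.9%). Of the 68 genes 54 differed in the same direction in Alb-D2KO, where 52.2% of all genes with coverage were higher, and 8 were called. In 35 of the 68 the adult level lay above that at P5, a count given without the share over all bodies. The 68 were long genes, with a median body of 116 kb, and 45 were protein coding.

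Grip1, Fgf10 and Vegfc led the genes with more coverage at P5. Grip1 (chr10:119453830-120087261) covered 44.3 kb at P1 and 89.7 kb at P5 in control, 40.9 and 94.6 kb in Alb-D2KO and 363 kb in the adult. Fgf10 covered 18.3 and 40.6 kb, with 17.1 and 34.7 kb in Alb-D2KO and 37.0 kb in the adult. Vegfc covered 12.5 and 33.3 kb, with 10.1 and 23.4 kb in Alb-D2KO and 15.3 kb in the adult. These 3 genes were higher at P5 in both genotypes, and the adult level was far higher for Grip1, near P5 for Fgf10 and near P1 for Vegfc. Control peaks with −log10 p above 2 covered 8.57 and 7.00 kb of Grip1 and 0 kb of Fgf10 at both ages. Such peaks covered 6.14 and 7.70 kb of Vegfc.
Atrnl1, an attractin-like gene, covered 14.9 and 34.4 kb, with 15.7 and 38.2 kb in Alb-D2KO and 66.9 kb in the adult. B3glct covered 7.80 and 19.3 kb, with 7.82 and 18.3 kb in Alb-D2KO and 53.0 kb in the adult. Fat1, a giant atypical cadherin, covered 7.71 and 16.5 kb, with 3.18 and 10.2 kb in Alb-D2KO and 44.4 kb in the adult. Each of these 3 genes was covered more at P5 than at P1 and more again in the adult list. Control peaks with −log10 p above 2 covered 0.257 and 0.252 kb of Atrnl1. For B3glct such peaks covered 0 and 2.38 kb, and for Fat1 0 and 0.873 kb.
Atf7ip, whose protein stabilises SETDB1, covered 11.5 and 24.4 kb, with 17.1 and 22.1 kb in Alb-D2KO and 22.5 kb in the adult. Rasgrf2, a Ras exchange factor, covered 6.39 and 18.8 kb, with 11.1 and 16.1 kb in Alb-D2KO. Lgr5, a receptor for R-spondins, covered 4.001 and 12.4 kb, with 10.1 and 15.2 kb in Alb-D2KO and 15.9 kb in the adult. Sorbs2, a cytoskeletal adaptor, covered 8.70 and 21.4 kb, with 8.96 and 15.9 kb in Alb-D2KO and 5.01 kb in the adult. In Atf7ip, Rasgrf2, Lgr5 and Sorbs2 control peaks with −log10 p above 2 covered less than 1 kb at either age.
Several others differed in control and hardly in Alb-D2KO, and the difference between genotypes was not tested. Brip1, a helicase partner of BRCA1, covered 3.83 and 16.8 kb in control and 5.89 and 7.55 kb in Alb-D2KO. Pde5a, the cyclic GMP phosphodiesterase, covered 5.04 and 16.0 kb against 5.50 and 4.15 kb. Rb1, the retinoblastoma tumour suppressor, covered 5.67 and 13.01 kb against 5.60 and 5.37 kb. In Brip1, Pde5a and Rb1 control peaks with −log10 p above 2 covered 0 kb at both ages.

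**Figure D4:**
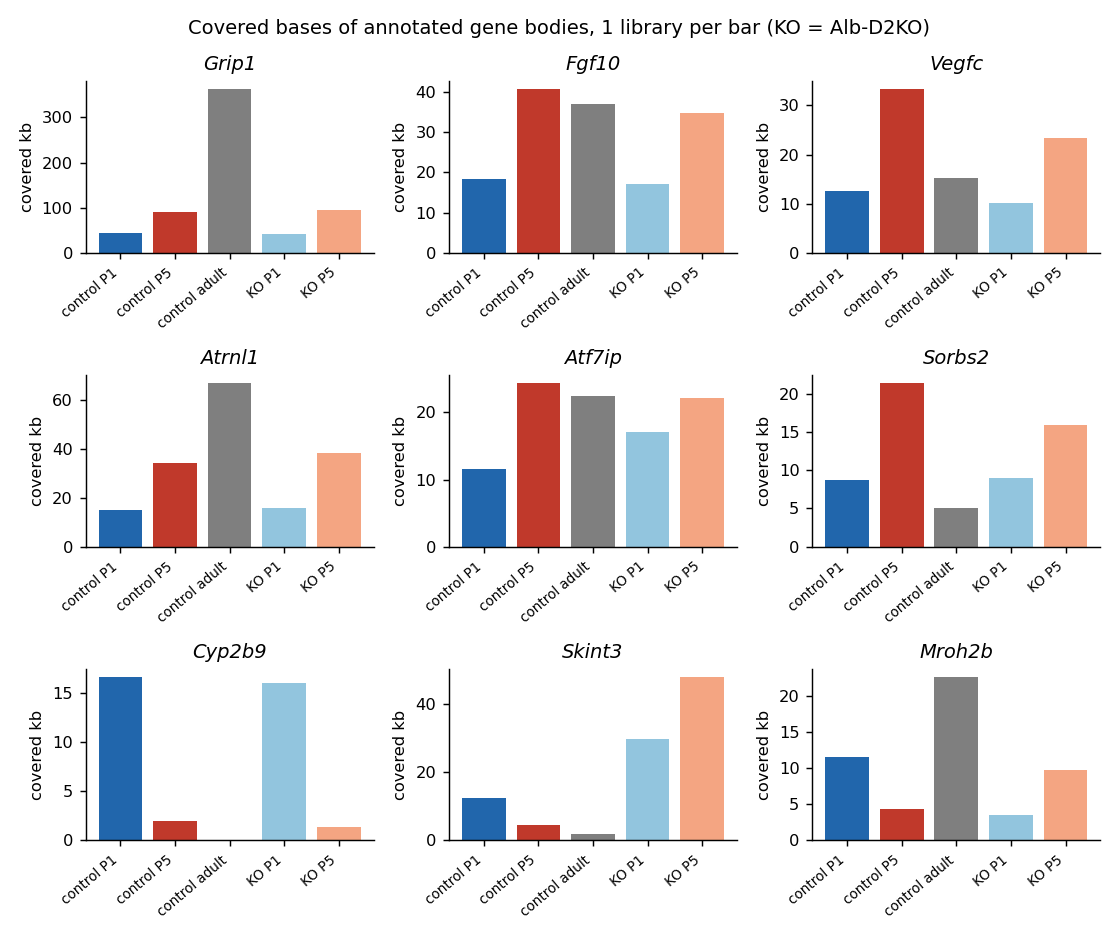
Covered kb (y axes) of 9 gene bodies called between P1 and P5 in control liver, with 1 bar for each of the 5 lists and no error bars, since each bar is 1 library (KO is Alb-D2KO). The first 6 panels hold genes covered more at P5, such as Grip1 (44.3 and 89.7 kb), and the last 3 those covered more at P1, of which Cyp2b9 (16.7 and 1.94 kb) has the same order in Alb-D2KO.

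Cyp2b9 had the largest difference towards P1. It encodes a cytochrome P450 that in adult mouse liver is predominantly female. Its body (chr7:26173411-26210661, forward strand) covered 16.7 kb at P1 and 1.94 kb at P5 (adult 0 kb), with 16.0 and 1.35 kb in Alb-D2KO. Of the 6 genes called higher at P1 it was the one called in Alb-D2KO too. At P1 it held 10 peaks and at P5 it held 3, with 13 and 2 in Alb-D2KO, and the P1 peak printed above was one of them (987 bp, 1.87-fold over input). These peaks were weak, with a highest −log10 p of 1.74 at control P1. The 300 bases around its transcription start, from 250 before to 50 after, had 0 bases covered in the 3 control lists, with 140 in Alb-D2KO at P1 and 0 at P5. Of stretches in the body 10.7% had more than 1 equally good position.
Lower coverage at P5 extended to the DNA upstream of Cyp2b9. The stretch chr7:26050001-26200000, from Cyp2b13 to within Cyp2b9, covered 64.1 kb at P1 and 40.01 kb at P5 (adult 1.81 kb), with 82.3 and 9.38 kb in Alb-D2KO. Before the gene, chr7:26050001-26100000 covered 15.0 and 11.2 kb, with 23.1 and 1.71 kb in Alb-D2KO. Then chr7:26100001-26150000 covered 29.2 and 23.3 kb, with 33.5 and 7.02 kb in Alb-D2KO. The last part, chr7:26150001-26200000, includes the start of Cyp2b9 and covered 19.9 and 5.46 kb in control. The next 50 kb, chr7:26200001-26250000, hold the end of Cyp2b9 and were also lower at P5, with 30.4 and 20.6 kb in control and 28.3 and 21.3 kb in Alb-D2KO. Beyond them the genotypes differed, since chr7:26250001-27050000, with Cyp2a, Cyp2b and Cyp2g genes, covered 389 and 421 kb in control and 437 and 396 kb in Alb-D2KO. Cyp2b13 itself covered 7.49 and 7.83 kb in control and 15.9 and 0 kb in Alb-D2KO. Cyp2b10, the member induced through the receptor CAR, had 0 kb in all 3 control lists.
The other 5 genes called higher at P1 lacked this likeness between genotypes. Skint3 covered 12.3 and 4.60 kb, against 29.8 and 48.0 kb in Alb-D2KO. Mroh2b covered 11.5 and 4.33 kb against 3.57 and 9.75 kb. Gm12766 (11.7 and 3.76 kb), Olfr443-ps1 (11.4 and 4.33 kb) and Gm26886 (10.5 and 3.60 kb) had 4.12 and 5.31 kb, 6.56 and 6.41 kb, and 19.7 and 18.2 kb in Alb-D2KO.

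Summed by the gene name that the lists give each peak, many more calls appeared. Of 4012 names with 10 kb or more, 574 were called higher at P5 (14.3%) and 511 higher at P1 (12.7%). In Alb-D2KO 89 of the 574 were called the same way and 64 the opposite way, and of the 511 these numbers were 114 and 58. Among all 24378 names Alb-D2KO had 595 called higher at P5 and 594 higher at P1. These 24378 include names under 10 kb, which could not be called. The 24 names with the largest differences each carried a peak of 50 kb or more. Of the 23 found in the reference only 6 have a body of 10 kb or more, which a call by body needs, and 0 of these 6 were called. Zfp978, a zinc finger gene, had 0 kb at P1 and 124 kb at P5 by name, while its body of 29.7 kb was covered in full in all 5 lists. Zfp979 beside it had 93.1 and 214 kb by name and a body of 30.6 kb covered in full. Prl2c2 and Prl2c3 are prolactin relatives on chromosome 13. By name Prl2c2 had 216 and 29.8 kb and Prl2c3 had 55.8 and 137 kb, while their bodies were 9.26 and 7.66 kb and 8.26 and 9.26 kb covered. Gm13135 had 218 and 0 kb by name, Gm4526 166 and 17.2 kb, Gm7663 58.5 and 216 kb and Gm48244 43.1 and 207 kb. Families are given by gene bodies below.

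Over all genes 10.3% of the body length was covered at P1 and 11.1% at P5, a ratio of 1.08, with 10.5% and 11.4% in Alb-D2KO. Of the 18536 genes with any coverage (36.2%) 9673 (52.2%) were higher at P5 and 7183 lower. Among coding genes the ratio was 0.960 for bodies under 10 kb, 1.04 for 10 to 30 kb, 1.12 for 30 to 100 kb, 1.14 for 100 to 300 kb and 1.07 above 300 kb. In Alb-D2KO it was 0.973 under 10 kb, 1.18 for 100 to 300 kb and 1.08 above 300 kb. These are the values against which each family is to be read, and nothing was tested.

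Among genes that act on chromatin, zinc finger genes were covered over 22.5% at P1 and 24.5% at P5 (adult 27.4%), with 22.6% and 24.1% in Alb-D2KO. Of the 279 with coverage 181 were higher and 86 lower at P5, with a median difference of 2.14 percentage points, beside 0.242 over all genes. Zfp697 covered 62.8 kb at P1 and 94.8 kb at P5 (adult 95.2 kb), with 57.9 and 77.4 kb in Alb-D2KO, and Zfp438 (10.2 and 22.2 kb, Alb-D2KO 15.5 and 21.6 kb) was the 1 member called. Writers, readers and erasers of H3K9 methylation were covered over 2.49% and 3.39% (26 genes, 5 higher and 5 lower), and Atf7ip was the 1 called. Histone cluster genes had 0.169% and 0.533%, Hox genes 0% and 0.0709%, and the Sp100 family 49.7% at both ages.

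Of the sensory receptor families, olfactory receptors were covered over 42.7% and 41.0% (487 higher, 566 lower), with 25.7% in the adult and 44.0% and 43.1% in Alb-D2KO. Vomeronasal receptors had 67.4% and 66.5%, with 48.3% in the adult. Protocadherins, adhesion proteins of neurons, had 48.7% and 47.6% (24 higher, 31 lower), but 45.9% and 50.6% in Alb-D2KO (37 higher, 18 lower). Within them the Pcdha genes had 67.7% and 63.6% (1 higher, 13 lower), with 64.2% and 62.6% in Alb-D2KO (8 higher, 6 lower). The Pcdhg genes had 16.7% and 22.1% (13 higher, 6 lower), with 15.6% and 30.3% in Alb-D2KO. Annotated Pcdha bodies overlap each other, as do those of Pcdhg, through shared exons at their ends, so that their counts are not independent. Cadherins and glutamate receptors, long genes of the nervous system, had 29.9% and 31.5%, with Grm8 at 107 and 157 kb (Alb-D2KO 103 and 149 kb).

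Genes for the metabolism of drugs and steroids differed among themselves. Cyp2 genes were covered over 36.1% and 36.8%, as Cyp2b genes had 26.4% and 14.8% and Cyp2c genes 51.8% and 57.0% (13 higher, 3 lower). In Alb-D2KO Cyp2b had 32.3% and 6.12% and Cyp2c 56.6% and 57.3%. The Cyp3 and Cyp4 genes had 22.2% and 21.1%. Of these, Cyp3a genes, which include the main drug-oxidising enzymes of liver, had 52.4% and 45.0% (1 higher, 8 lower), with 15.0% in the adult and 52.7% and 42.3% in Alb-D2KO. Cyp4a genes, fatty acid hydroxylases under PPAR-alpha, had 15.5% and 21.9% (8 higher, 1 lower), with 31.95% in the adult and 13.5% and 15.7% in Alb-D2KO. Ugt glucuronosyltransferases had 24.0% and 23.6%, major urinary proteins 34.5% and 39.2%, and serpins 16.0% and 15.6%. In the adult the last 3 had 6.59%, 10.9% and 13.7%.

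Families with roles in immunity and barrier tissue did not share a direction. Defensins had 29.2% and 24.9% (22 higher, 34 lower), but 29.1% and 29.7% in Alb-D2KO. Immunoglobulin segments had 39.1% and 34.7%, natural killer receptors 49.0% and 49.9%, Schlafen and Ifi20x genes 16.4% and 16.7%, MHC genes 3.27% and 3.51% and interferons 1.08% and 1.33%. T cell receptor segments stood apart with 1.44% and 8.18%, from 16 of 230 segments with coverage, and Alb-D2KO had 5.29% and 5.04%. Skint genes had 52.4% and 46.5% in control against 72.8% and 83.2% in Alb-D2KO. Keratins had 1.59% and 1.44%.
Pregnancy and prolactin genes had 26.8% and 26.04%, and within them the placental Psg genes 24.1% and 17.1% (2 higher, 10 lower), with 25.1% and 15.2% in Alb-D2KO. Secretoglobins had 61.0% and 49.4% (18 higher, 41 lower), with 22.5% in the adult and 59.8% and 39.9% in Alb-D2KO. The Nlrp family includes many oocyte genes and had 44.6% and 42.1% (7 higher, 11 lower), with 46.6% and 42.1% in Alb-D2KO. Nlrp4c covered 36.0 and 20.3 kb against 28.9 and 27.3 kb in Alb-D2KO, and Nlrp2 34.4 and 22.3 kb against 33.1 and 29.8 kb. Members with more at P5 included Nlrp5-ps, with 29.9 and 37.6 kb against 43.3 and 34.8 kb, and Nlrp9c, with 53.3 and 60.6 kb against 56.7 and 59.5 kb. Pramel and Oog genes had 47.3% and 50.6%, and Speer and Tdpoz genes 29.6% and 26.5%. MicroRNA genes had 7.06% and 7.88% and predicted genes 16.8% and 17.9%.

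**Figure D5:**
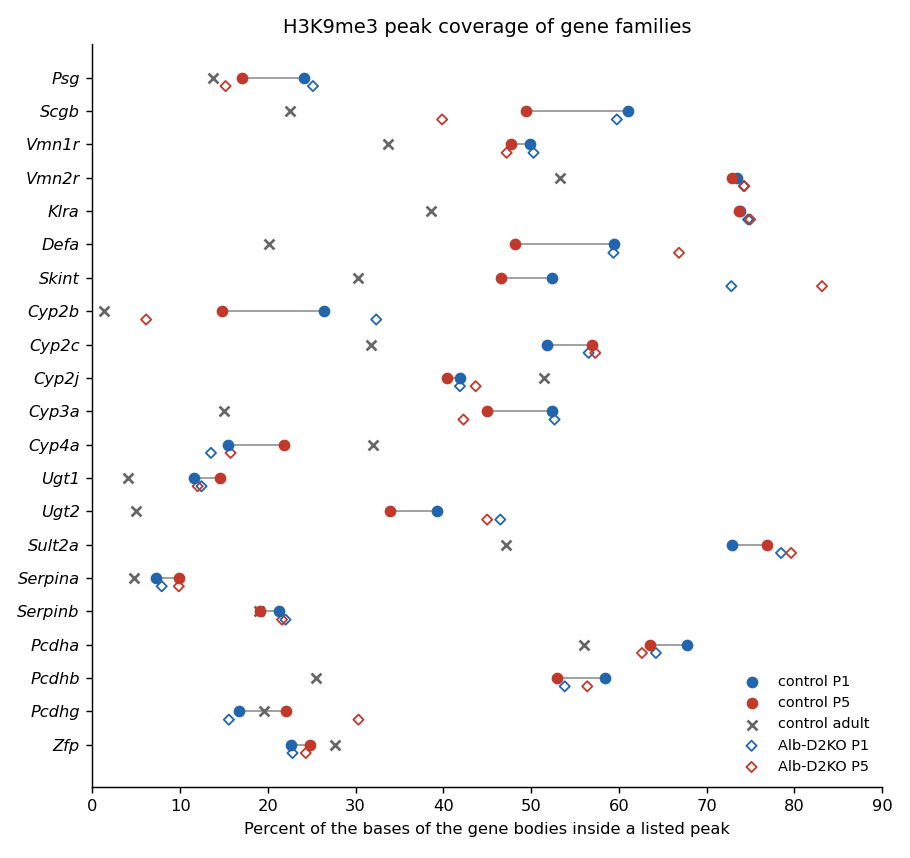
Percent of the bases of gene bodies inside a listed peak (x axis) for 21 groups of genes by the start of their names (y axis), with filled circles for control P1 and P5, crosses for control adult and open diamonds for Alb-D2KO, 1 list per symbol. Scgb genes (61.0% and 49.4%) and Cyp2b genes (26.4% and 14.8%) lie lower at P5 in both genotypes, whereas Skint genes do so in control alone.

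Summed over their bodies, genes of liver identity were covered about as much as all genes, but most of that coverage lay in Cyp2c29 and Cyp3a11. Of 23 hepatocyte markers 22 were in the reference, and together they were covered over 11.5% at P1 and 11.9% at P5 (adult 2.90%), with 13.7% and 12.8% in Alb-D2KO, beside 10.3% and 11.1% over all genes. Of the 22, 8 had any coverage at P1 or P5 (36.4%), beside 36.2% of all genes. Alb had 0 kb at both ages. The 22 together covered 64.4 kb at P1 and 66.25 kb at P5. Of this Cyp2c29 covered 42.3 and 43.2 kb (adult 12.3 kb), and Cyp3a11 covered 13.3 and 11.7 kb (adult 0 kb). Cps1, the urea cycle enzyme of the mitochondrion, covered 4.87 and 1.67 kb and 0 kb in the adult, though Alb-D2KO had 5.95 and 5.59 kb.
Fetal liver genes (17 of 18 in the reference) were covered over 1.15%, 2.43% and 3.95% in control P1, P5 and adult, with 1.46% and 2.28% in Alb-D2KO. Of the 12 with coverage 9 were higher at P5. Lin28b, which blocks maturation of let-7 microRNAs, covered 2.44, 8.06 and 9.83 kb, with 5.44 and 7.54 kb in Alb-D2KO. Afp covered 0.656 kb at P1 and 0 kb at P5.
Erythroid and other haematopoietic markers (19 genes) were covered over 6.09% and 7.04%, with 4.94% and 9.40% in Alb-D2KO. Markers of other liver cells (14 genes) had 5.19%, 6.90% and 14.1% in control P1, P5 and adult, with 5.37% and 7.88% in Alb-D2KO. All 5 with coverage were higher at P5, with Reln at 28.8 and 38.1 kb and the macrophage gene Adgre1 at 21.5 and 25.2 kb. The cellular makeup of the livers was not tested.
Imprinted genes (31) were covered over 11.9% and 12.2%. Snrpn covered 111 and 116 kb and 29.7 kb in the adult (Alb-D2KO 120 and 119 kb), and Usp29 covered 25.4, 17.4 and 8.27 kb, with 29.1 and 13.5 kb in Alb-D2KO. Thyroid hormone genes (16) had 1.90% and 2.52%, and 0.197% in the adult. Thrb, a receptor for T3, covered 13.3, 18.98 and 2.13 kb, and Dio2 itself covered 0.638 kb at P1 and 0 kb at P5.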

How the data were processed

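H3K9me3 ChIP-seq of mouse liver was analysed from the peak lists the authors deposited. Per the methods, reads were aligned with BWA to mm10 in Partek, peaks were called with MACS2 in broad mode at a p-value limit of 0.05 over the matching input, and peaks were annotated with GENCODE M24. The authors' lists give for each peak its length in bases, the −log10 of its p-value and of its q-value, and its fold enrichment, a linear ratio over input, each averaged over the broad region. Of 9 deposited lists 5 were used. The others, adult Alb-D2KO and the authors' genotype comparisons, which hold peaks of one genotype called over the other, were not used here. Groups were taken from the sample labels, with 1 library each, so no test was made. Depth is unknown, and no value was scaled for it.

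Listed starts were taken as counted from 0, so that printed positions run from the listed start plus 1 to the listed end, with an uncertainty of 1 base. Covered bases were summed per 100-kb window, per listed gene name and per gene body of GENCODE M21 (GRCm38), and calls used the larger side of at least 20 kb (windows) or 10 kb (genes) and 2-fold after adding 1 kb. The text names the 10 windows and 12 listed names called each way with the largest difference, members of each family past 2-fold or with the most coverage, and windows led by the smaller difference of both genotypes. The gene bodies, 1-Mb windows, subfamilies and single markers named besides were chosen after their values were seen. Members, families and lists were chosen with earlier results of these data known. The windows of 1 Mb, mean enrichment in dense windows, runs of stronger peaks, the Cyp2b stretches and the placement of 100-base reference stretches (minimap2 2.31-r1302, mapping quality 0) were added after the data had been seen. Python 3.11.15, numpy 2.4.6, pandas 2.3.3, scipy 1.17.1 and pysam 0.24.0 were used. Counting and calls were tested on simulated data. Alternatives were limits on −log10 p of 2 and 3, the 10000 strongest peaks, lists of equal length, merged peaks, scaling by totals, shifted or larger windows, 3-fold, number of peaks, a 50% overlap and gene bodies. Values of some single genes are not reported here.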

Additional observations from a re-analysis of the deposited data

Results flagged for a closer look

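In 10 windows the P5 minus P1 difference in covered length had opposite signs in control and Alb-D2KO, which drew attention to them. The difference between genotypes was not tested in any of them, since each rests on 1 library per genotype and age. At chr8:38800001-38900000 the difference was 31.3 kb in control and -2.51 kb in Alb-D2KO, and at chr14:49600001-49700000 (Armh4) it was 17.7 and -3.08 kb. In the Skint cluster of chromosome 4 it was -12.6 and 19.4 kb at chr4:112200001-112300000, -21 and 14.6 kb at chr4:112300001-112400000, -14.5 and 18.9 kb at chr4:112400001-112500000, and -19.8 and 13.2 kb at chr4:112500001-112600000. These 4 windows adjoin and are not independent, and the 1-Mb window around them, chr4:112000001-113000000, had -106 and 126 kb. At chr7:77200001-77300000 the difference was -18.5 and 20.3 kb. The 1-Mb windows chr6:19000001-20000000 and chr8:28000001-29000000 (Unc5d) had 79.6 and 79.4 kb in control and -24.1 and -52.1 kb in Alb-D2KO.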

How the results depend on the processing

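The ratio of covered length (1.06) turned to 0.907 with −log10 p above 2, and was 1.51 above 3, 1.22 for the 10000 strongest peaks and 1.03 after merging peaks. With both lists held to the setting, the share of P1 peaks overlapping a P5 peak (65.6%) was 17.6% above 2, 49.6% above 3, 18.8% for the strongest peaks, 61.5% for lists of equal length, 63.5% merged and 47.1% with an overlap of 50% of the peak, and the share of P5 peaks (63.3%) was 22.6%, 56%, 18.6%, 69.3%, 61.6% and 42.5%. Against the whole other list, 79.8% of P1 and 81.5% of P5 peaks above 2 and 89.6% and 93.8% of those above 3 overlapped. Windows of 100 kb called higher at P5 (51) numbered 97 above 2, 112 for the strongest peaks, 29 for equal length, 2 at 3-fold and 8 by number of peaks. Those called higher at P1 (8) numbered 183 above 2, 3 above 3, 55, 34, 1 and 16 for the same settings, and 20 with 1-Mb windows, an alternative chosen after seeing the data. Listed names called higher at P5 (574) were 275 above 2, 64 above 3, 275 for the strongest peaks, 314 at 3-fold and 68 by gene bodies, and those higher at P1 (511) were 19 above 3, 165, 322 and 6. Windows called alike in Alb-D2KO (5) were 73 above 2, 22 above 3, 37 for the strongest peaks and 1 for equal length. The cause of these moves was not tested, except that fewer peaks entered under the limits. The other 16 counts stayed within 1.5 times.

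No paired analysis was possible because each group had 1 library. Depth per library is unknown, so that small differences in covered length were not detectable as such. Leaving out a replicate was not possible either.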
